A study of Mus musculus with 48 samples.

Results

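The p53 response was followed through the neurovascular unit (NVU) after experimental stroke in 10 genes, namely *Cdkn1a*, *Mdm2*, *Sesn1*, *Ccng1*, *Bbc3*, *Trp53inp1*, *Phlda3*, *Gadd45a*, *Gadd45b* and *Gadd45g*. They were taken by gene symbol from a table of 24973 genes, in which each of the 10 had 1 row. The 48 libraries came from 4 sorted cell types, the endothelial cells (EC) and pericytes (PC) of brain vessels and the glial astrocytes (AC) and microglia (MG), each taken from the ipsilateral (stroke) and the contralateral hemisphere of the same adult male C57BL/6 mice, with 6 replicates per cell type and hemisphere. Each replicate was a pool of 3 to 4 brains, taken after the middle cerebral artery had been occluded for 1 h and reperfused for 23 h (tMCAO). The contralateral hemisphere served as the control, so the controls also come from animals that underwent tMCAO, and no unoperated animals were part of the 48 libraries. EC were sorted by VECAD, PC by PDGFRβ and NG2, AC by ACSA2, and MG as CD45low CD11b+ cells. EC, PC and AC were taken from CD45-negative cells, a gate meant to leave out immune cells. For each gene it was asked in which cell type it was most abundant and how its level differed between the hemispheres. In RNA from sorted pools, a change in the RNA per cell cannot be told apart from a change in the mix of cells that a gate collects. During isolation, vessel fragments, the source of EC and PC, were homogenized and digested with further enzymes, while the glial fraction was kept on ice. Differences in level between the vascular and the glial cell types therefore cannot be told apart from effects of this handling.

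The transcription factor p53 is held at low levels by the ubiquitin ligase Mdm2 and is released when DNA is broken, nucleotides run short or cells are otherwise stressed. It then switches on genes that stop the cell cycle, repair DNA, limit growth signalling or, with stronger damage, open the mitochondrial path to apoptosis, and cerebral ischemia with reperfusion is a known setting of this response. The Gadd45 proteins are small acidic stress sensors that bind the kinase Map3k4, the cyclin-dependent kinase Cdk1 and the sliding clamp Pcna. *Gadd45a* is a classical p53 target, whereas *Gadd45b* and *Gadd45g* are best known as fast responders to cytokines, NF-κB and neuronal activity.

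The members lie on 8 chromosomes of the mouse genome GRCm38, and all are protein-coding. Chromosome 10 holds 3 of them, namely *Mdm2* (ENSMUSG00000020184, 117688875 to 117710758, minus strand), *Sesn1* (ENSMUSG00000038332, 41809935 to 41908424, plus strand) and *Gadd45b* (ENSMUSG00000015312, 80930073 to 80932204, plus strand). *Cdkn1a* (ENSMUSG00000023067) lies on chromosome 17 from 29090979 to 29100722 and *Ccng1* (ENSMUSG00000020326) on chromosome 11 from 40748552 to 40755311. *Bbc3* (ENSMUSG00000002083) lies on chromosome 7 from 16309616 to 16318205, *Trp53inp1* (ENSMUSG00000028211) on chromosome 4 from 11156431 to 11174379, and *Phlda3* (ENSMUSG00000041801) on chromosome 1 from 135766119 to 135769136. *Gadd45a* (ENSMUSG00000036390) lies on chromosome 6 from 67035096 to 67037406 and *Gadd45g* (ENSMUSG00000021453) on chromosome 13 from 51846678 to 51848468. In the table's own annotation, 8 of the 10 belong to the KEGG p53 signaling pathway, and the exceptions are *Trp53inp1* and *Phlda3*. Short transcripts without a known product overlap *Cdkn1a*, *Sesn1* and *Gadd45a*, and since reads that touch several genes were not counted, part of the RNA of these 3 genes may be missing from their values.

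RefSeq promoter windows (GRCm38.p6) were matched for 9 of the 10 members, 13 windows in all because some genes have several starts. The 10-base p53 half-site consensus was searched in windows of 250 bases before to 50 bases after the start. It occurred in 5 members, in 5 of their 13 windows, and in 8.36% of all 32851 windows. The stretches below are shown because p53 is the factor that defines the group. Each has 30 bases, written on the strand of the gene with the half-site in capitals, and positions are counted back from the transcription start.
Cdkn1a, half-site 73 bases before the start, chr17:29090896-29090925, plus strand: tcctgggtggGGACTAGCTTtctggccttc
Cdkn1a, half-site 51 bases before the start, chr17:29090918-29090947, plus strand: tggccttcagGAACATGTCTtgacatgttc
Mdm2, half-site 186 bases before the start, chr10:117710925-117710954, minus strand: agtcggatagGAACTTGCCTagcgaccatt
Sesn1, half-site 173 bases before the start of a shorter transcript, chr10:41887256-41887285, plus strand: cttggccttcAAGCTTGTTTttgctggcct
Ccng1, half-site 185 bases before the start, chr11:40755452-40755481, minus strand: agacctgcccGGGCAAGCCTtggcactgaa
Gadd45a, half-site 40 bases before the start, chr6:67037428-67037457, minus strand: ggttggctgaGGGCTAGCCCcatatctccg
*Cdkn1a* was the member with 2 such matches. A match of letters in this window is a description of the sequence and not a test of p53 binding, which these data did not measure.

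Values are reads per gene that the authors scaled to a common library size with DESeq2 and rounded (normalized counts). They summed to between 10549900 and 16942165 per library, and the spacing of low values put the reads behind them at 4.9 to 17.1 M, so that 3 reads corresponded to at most 7.1 normalized counts. For the 12 ipsilateral PC and MG samples, the sample titles and the columns of the table name opposite cell types. The column names were used, because the lowest library of each named cell type lay above the highest of all others for 16 of 16 markers, such as *Csf1r* (23680 to 151572 in MG, 0 to 16058 elsewhere) and *Pdgfrb* (6375 to 31045 in PC, 0 to 4332 elsewhere). Libraries of EC, PC and AC also held RNA of microglial markers, more in some replicates than in others. In ipsilateral AC the summed level of *Aif1*, *Tmem119*, *Cd68* and *Csf1r* was 2541 to 10617 in replicates 1 to 4 and 368 to 480 in replicates 5 and 6, against 91419 to 163197 in ipsilateral MG.

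*Cdkn1a*, *Gadd45b* and *Gadd45g* had the highest levels per length of the 10 genes in all groups except contralateral AC, where *Phlda3* (824.9 normalized counts per kilobase) and *Sesn1* (453.5) stood above *Gadd45b*. Per kilobase of exon, the mean level of *Cdkn1a* ran from 1261 normalized counts in contralateral MG to 6250 in contralateral EC, that of *Gadd45g* from 1054 in contralateral AC to 4320 in contralateral EC, and that of *Gadd45b* from 334.5 in contralateral AC to 3275 in contralateral PC. *Phlda3* had the largest ratio of its highest to its lowest group, from 26.3 per kilobase in contralateral MG to 1221 in contralateral PC. *Sesn1* lay between 144.2 and 518.2 per kilobase, *Ccng1* between 113.4 and 295.7, and *Mdm2* between 93.15 and 183.1. *Bbc3* lay between 15.38 and 132.1, *Trp53inp1* between 12.74 and 158.5, and *Gadd45a* between 44.6 and 192.0. Per kilobase, *Gadd45b* and *Gadd45g* stood above *Gadd45a* in all 8 groups.

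**Figure D1:**
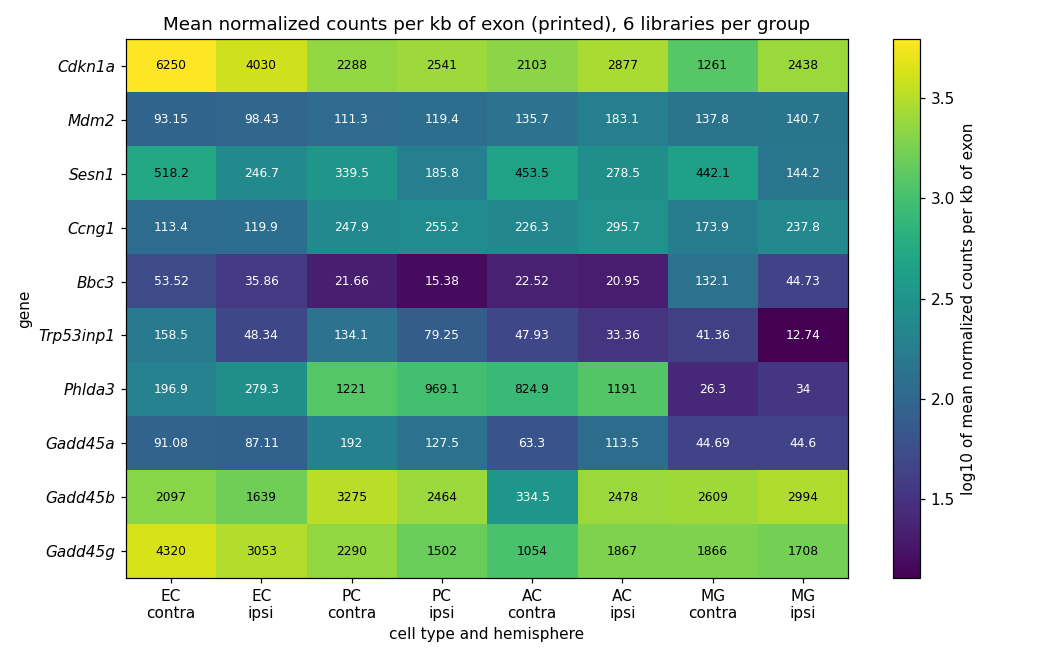
Mean normalized counts per kilobase of exon for each gene (rows) in each cell type and hemisphere (columns), 6 libraries per group; the color is the log10 of the printed value. *Cdkn1a*, *Gadd45b* and *Gadd45g* form the bright rows, with *Gadd45b* at 334.5 in contralateral astrocytes as the exception, and *Phlda3* falls to 26.3 in contralateral microglia.

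The first comparison asked in which cell type each gene was most abundant in the contralateral hemisphere. Of the 60 contrasts between pairs of cell types, 6 for each member, 30 were called (limma on all 48 libraries, adjusted p of at most 0.05 and at least 1.5-fold), at a background of 44.9% of contrasts over all 15003 genes tested. With the replicate number as a block, 33 were called, at a background of 46.6%. Levels are given as the lowest library, the median and the highest library of 6.

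*Phlda3*, which binds membrane phosphoinositides and thereby restrains Akt, had the strongest cell type pattern. In the contralateral hemisphere it ran from 1281 over a median of 1978.5 to 2560 normalized counts in PC, from 925 over 1113.5 to 2174 in AC, from 102 over 218.5 to 777 in EC, and from 22 over 36 to 72 in MG. The PC and AC libraries overlapped, whereas each step from AC to EC and from EC to MG was free of overlap. The log2 differences were 2.32 between AC and EC (standard error 0.37, limma adjusted p = 7.8e-07) and 2.67 between EC and MG (0.37, adjusted p = 5.7e-08), while PC and AC differed by 0.59 (0.37, adjusted p = 0.189).

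*Gadd45b* was low in 1 cell type. It ran from 240 over a median of 454.5 to 1164 normalized counts in contralateral AC, against 1337 over 3042 to 7899 in EC, 1887 over 3472 to 6900 in MG and 2396 over 4847 to 9502 in PC. No AC library reached the lowest library of another cell type. EC, the next in order, exceeded AC by a log2 difference of 2.56 (standard error 0.43, limma adjusted p = 2.6e-06), whereas PC and MG (0.37, adjusted p = 0.512) and MG and EC (0.42, adjusted p = 0.473) did not differ beyond their spread. *Gadd45g*, the related gene, was also lowest in AC with 962 over 1158.5 to 1727, but its neighbour MG, with 876 over 2184.5 to 3321, overlapped it (log2 difference 0.72, adjusted p = 0.0595, and 0.0406 with the replicate number as a block). *Gadd45g* was highest in EC with a median of 4071, and EC and PC did not differ beyond their spread (0.68, adjusted p = 0.103).

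*Cdkn1a* encodes p21, the inhibitor of cyclin-dependent kinases through which p53 arrests the cell cycle. Contralateral EC held 10519 over a median of 14460.5 to 56467 normalized counts, PC 6976 over 7718 to 10441, AC 3875 over 6508.5 to 14545, and MG 2740 over 3807 to 6846. Every EC library lay above every PC and MG library, and EC exceeded PC by a log2 difference of 1.20 (standard error 0.32, limma adjusted p = 0.00273). PC and AC (0.26, adjusted p = 0.539) and AC and MG (0.67, adjusted p = 0.0806, and 0.0496 with the block) overlapped. *Gadd45a* was highest in PC, with 211 over 306 to 507, and exceeded EC, the next in order, by a log2 difference of 1.32 (standard error 0.42, adjusted p = 0.0102), although these 2 groups overlapped.

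The other members followed further orders. *Bbc3*, which encodes Puma, a BH3-only activator of apoptosis, was highest in MG with 107 over a median of 312 to 358 normalized counts and exceeded EC, with 39 over 123 to 168, by a log2 difference of 1.32 (standard error 0.52, limma adjusted p = 0.0368). *Trp53inp1*, a cofactor of p53 that also takes part in autophagy, had 2 levels, with medians of 938.5 in EC and 855 in PC against 323.5 in AC and 281.5 in MG. The step from PC to AC was 1.40 (standard error 0.44, adjusted p = 0.00804), and neither EC and PC nor AC and MG differed beyond their spread (adjusted p = 0.936 and 0.653). *Ccng1*, cyclin G1, which recruits a phosphatase to Mdm2, was lowest in EC with a median of 363.5 and was 0.62 higher in MG, the next in order (standard error 0.21, adjusted p = 0.016). For *Mdm2* and *Sesn1*, no neighbours in the order differed beyond their spread (adjusted p of 0.326 to 0.843 and of 0.262 to 0.917), but *Mdm2* was higher in MG, the first in its order, than in EC, the last (log2 difference 0.73, standard error 0.28, adjusted p = 0.0336, and 0.013 with the block), and with the block also higher in AC than in EC (0.65, adjusted p = 0.0234).

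**Figure D2:**
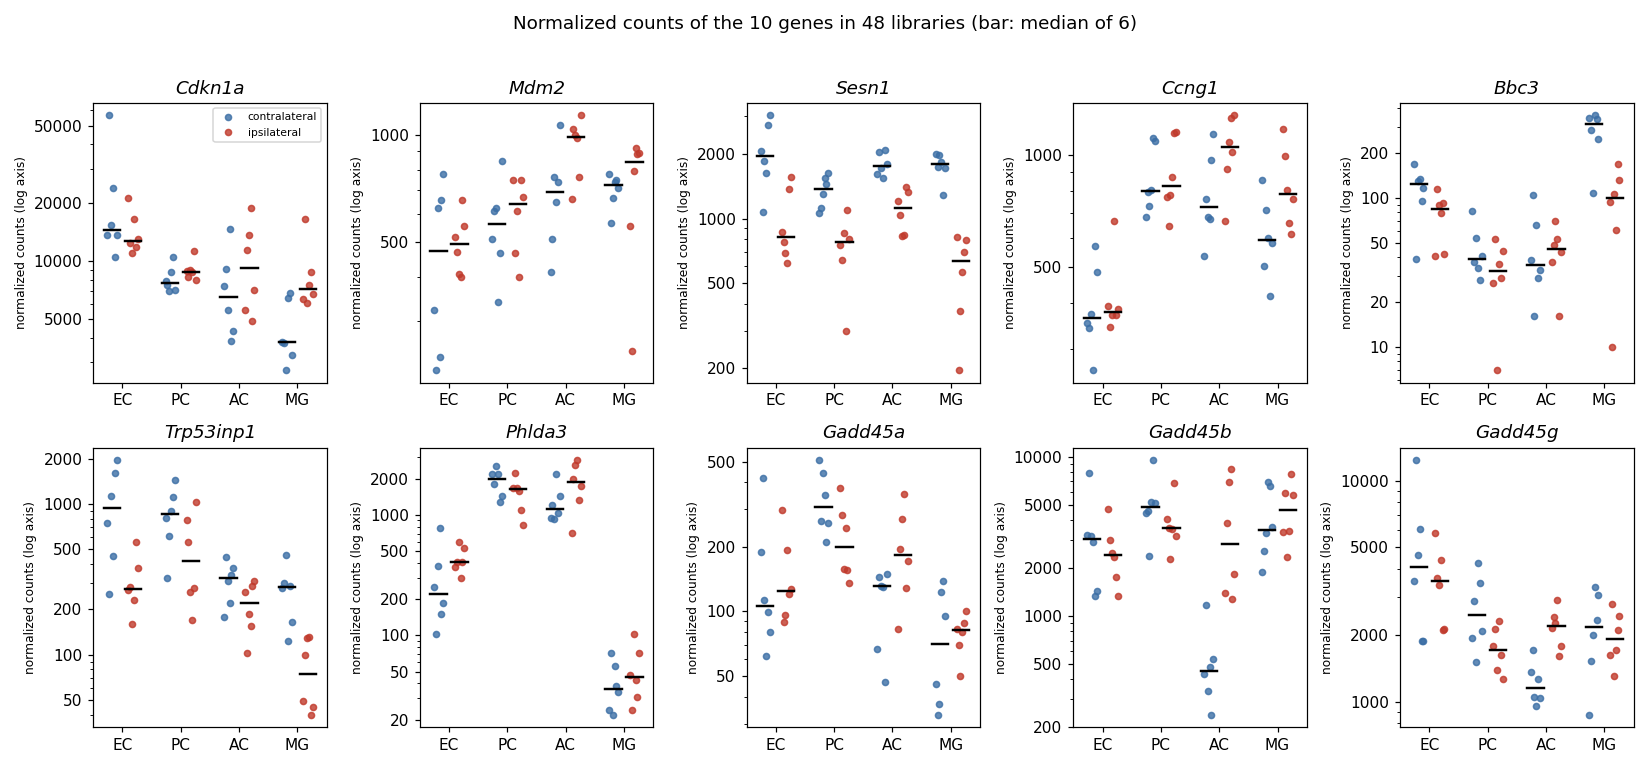
Normalized counts (log axis) of each gene in all 48 libraries, by cell type and hemisphere; each point is 1 library and each bar the median of 6. *Gadd45b* in contralateral astrocytes (240 to 1164) lies below all other groups, *Phlda3* drops to between 22 and 102 in microglia of either hemisphere, and *Sesn1* is lower in ipsilateral than in contralateral libraries of every cell type by its median.

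The second comparison asked how the 10 genes differed between ipsilateral and contralateral hemispheres within each cell type. A gene was called where limma gave an adjusted p (Benjamini-Hochberg, over all genes tested) of at most 0.05, the change was at least 1.5-fold, and all 6 replicates of 1 hemisphere had more than 10 normalized counts. Of the 10 members, all of which passed the filter on low values, 4 were called in MG, 1 in AC, 0 in EC and 0 in PC, while this rule called 10.6%, 0.341%, 0.491% and 1.02% of all genes tested in these cell types. In EC and PC, 2 and 2 members had an unadjusted limma p under 0.05. With the replicate number as a block, which matches the hemispheres by that number, 3 were called in MG, 3 in AC, 0 in EC and 0 in PC, against 11.0%, 1.59%, 0.551% and 1.66% of all genes. The median log2 fold change of the 10 members was -0.24 in EC, -0.46 in PC, 0.45 in AC and 0.07 in MG, and that of all genes tested was -0.03, -0.04, -0.06 and -0.18. In MG 1 member was called higher and 3 lower, where 4.29% and 6.27% of all genes were. In AC 2 of the 10 members had a log2 fold change below 0, and in PC 7, beside 55.6% and 52.5% of all genes.

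**Figure D3:**
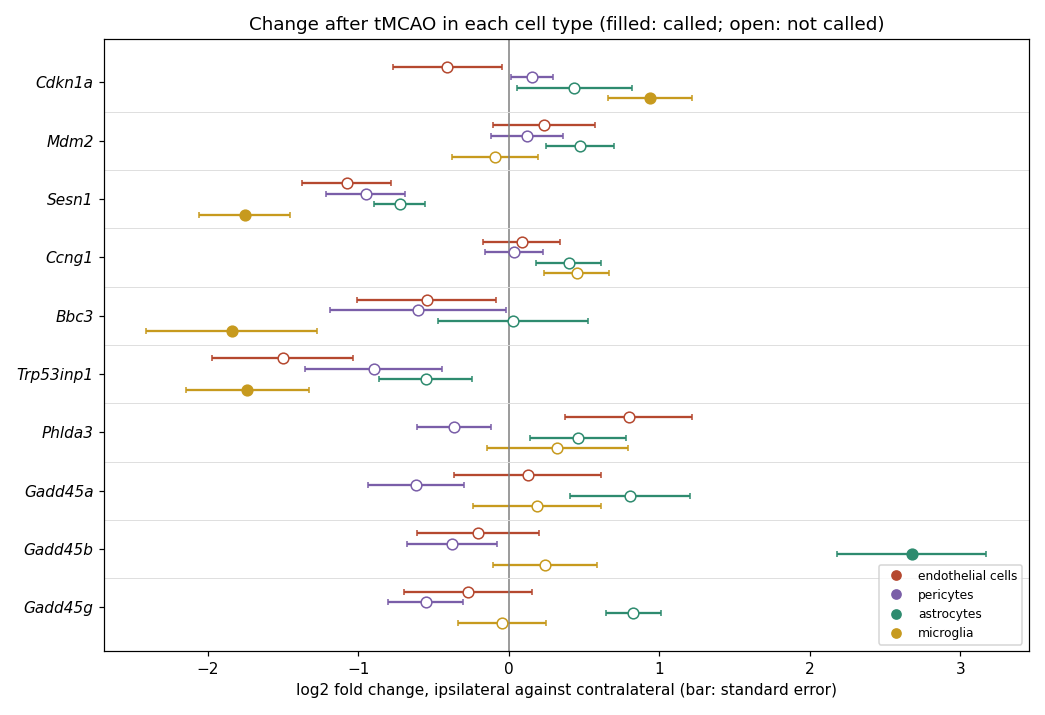
Log2 fold change of each gene, ipsilateral against contralateral, in the 4 cell types (limma, 6 against 6 libraries; bars are standard errors; filled symbols were called). *Sesn1* lies left of 0 in all 4 cell types, from -0.72 to -1.76, and *Gadd45b* stands at 2.68 in astrocytes and between -0.38 and 0.24 elsewhere.

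*Sesn1* was lower on the stroke side in every pair of libraries. It encodes sestrin 1, a p53- and Foxo-induced protein that holds back mTORC1 signalling and oxidative stress. Normalized counts in MG ran from 1289 over a median of 1789.5 to 1993 contralaterally and from 197 over 631 to 817 ipsilaterally. All 6 ipsilateral MG libraries lay below all contralateral ones. The mean fell from 1760.5 ± 257.0 to 574.2 ± 247.7 (SD, n = 6 per hemisphere), a log2 change of -1.76 (standard error 0.30, limma adjusted p = 0.00267, and 0.00662 with the block).

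In AC, *Sesn1* ran from 1552 over a median of 1765.5 to 2094 contralaterally and from 830 over 1123.5 to 1410 ipsilaterally, again without overlap. The log2 change was -0.72 (standard error 0.17), which was not called without the block (limma adjusted p = 0.122) and was called with it (adjusted p = 0.0297). In EC it ran from 1071 over 1960.5 to 3030 against 622 over 822 to 1568, and in PC from 1063 over 1371.5 to 1638 against 299 over 774 to 1093. These groups overlapped, and neither change was called (EC, log2 -1.08, standard error 0.30, adjusted p = 0.138, with block 0.0508; PC, -0.95, 0.26, adjusted p = 0.103 with and without the block). The paired difference was below 0 in 6 of 6 pairs in each of the 4 cell types, and no difference between cell types in this change was called, the lowest adjusted p of the 6 contrasts being 0.379. Within PC, replicate 4 had the largest paired difference, -2.37, against -0.40 to -1.03 in the other 5. The microglial marker share of ipsilateral libraries was 0.227% to 17.4% in EC and 0.22% to 23.4% in PC, and the level of *Sesn1* in MG scaled by it came to at most 99.9 and 134.3 normalized counts, or up to 14.5% and 35.1% of what was measured in a library.

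**Figure D4:**
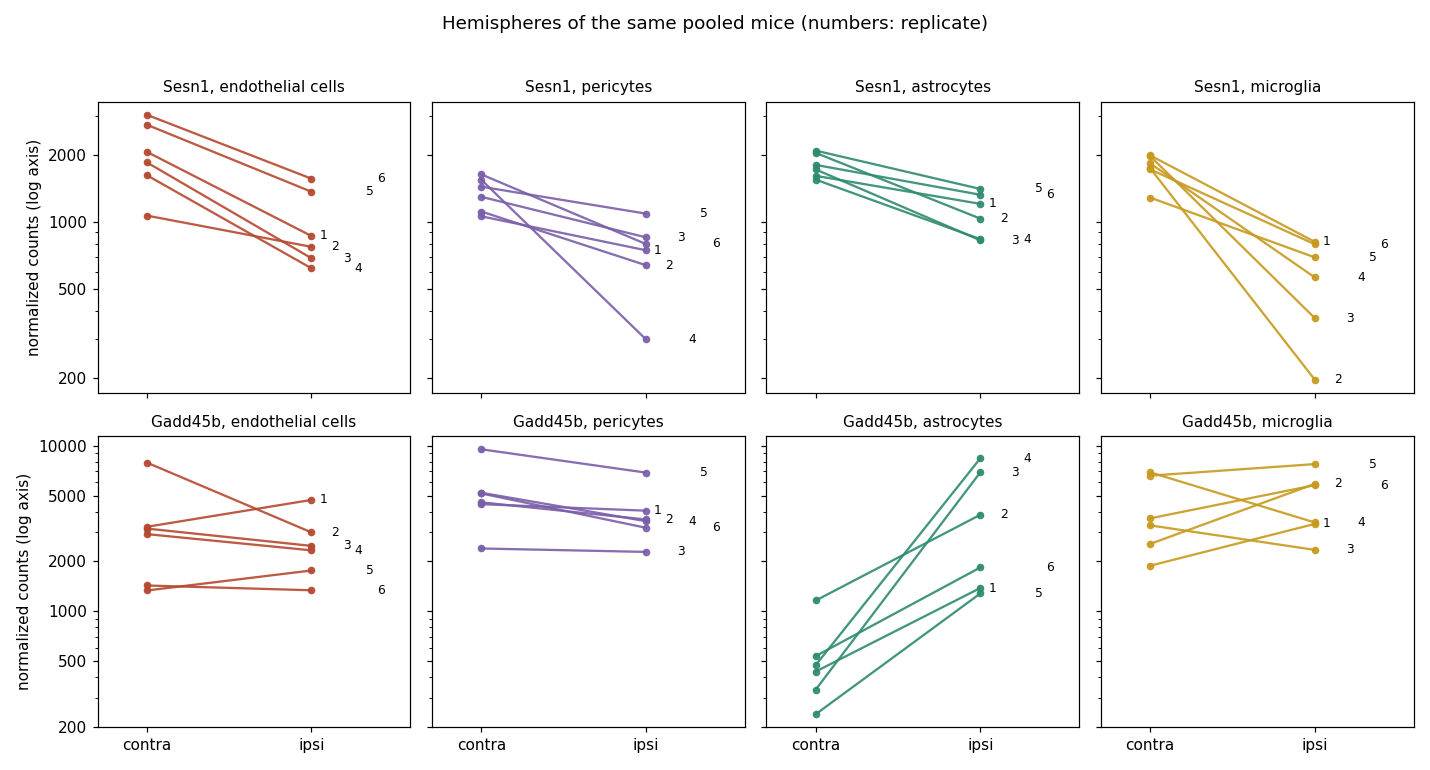
Normalized counts (log axis) of *Sesn1* (top) and *Gadd45b* (bottom) in the contralateral and ipsilateral hemisphere, with a line joining libraries of equal replicate number. All 24 lines of *Sesn1* slope down, and those of *Gadd45b* slope up in 6 of 6 astrocyte pairs and down in 6 of 6 pericyte pairs.

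*Gadd45b* changed most, and it did so in AC. Contralateral AC held from 240 over a median of 454.5 to 1164 normalized counts, and ipsilateral AC from 1283 over 2834 to 8385. Every ipsilateral library lay above every contralateral one, although the ipsilateral libraries themselves spread widely. The mean rose from 531.5 ± 327.2 to 3937 ± 3051 (SD, n = 6 per hemisphere), a log2 change of 2.68 (standard error 0.50, limma adjusted p = 0.0393, and 0.00687 with the block), so that ipsilateral AC reached 2478 normalized counts per kilobase, beside 1639 to 2994 in the other ipsilateral cell types. The call without the block was lost with no filter on low values and when any 1 of replicates 1 to 5 was left out, with adjusted p between 0.00016 and 0.248 over all alternatives tried.

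Values of microglial RNA stand beside this change. In AC of replicates 5 and 6, in which the 4 microglial markers summed to 368 and 480 ipsilaterally or 0.303% to 0.396% of their level in ipsilateral MG, *Gadd45b* was at 240 and 538 contralaterally and at 1283 and 1841 ipsilaterally. Scaling the level of *Gadd45b* in MG by the microglial marker share gave 14.4 to 416.2 normalized counts in ipsilateral AC, 1.02% to 10.9% of what was measured there. In contralateral AC the same scaling gave 11.9 to 271.2 normalized counts, 2.89% to 28.6% of what was measured. Summed levels of the 5 neutrophil markers (*S100a8*, *S100a9*, *Ly6g*, *Retnlg* and *Mmp8*) were 195 to 5093 in ipsilateral and 1 to 902 in contralateral AC. With the block, *S100a8* and *S100a9* were called higher there (log2 changes of 3.93 and 3.91, limma adjusted p = 0.0351 and 0.0249). The part of these markers in the changes of *Gadd45b*, *Gadd45g* and *Sesn1* in AC was not tested.

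In the other cell types, *Gadd45b* ran from 1337 to 7899 contralaterally and from 1341 to 4703 ipsilaterally in EC, from 2396 to 9502 and from 2285 to 6874 in PC, and from 1887 to 6900 and from 2350 to 7736 in MG. Hemispheres overlapped in each, with log2 changes of -0.20, -0.38 and 0.24 (adjusted p = 0.898, 0.584 and 0.682). The change in EC differed from that in AC by -2.88 (standard error 0.61, limma adjusted p = 0.0417, and 0.00211 with the block). This was the 1 call among 60 contrasts of the members, at a background of 0.231% of contrasts over all genes. It was lost with a pseudocount of 0.1 (adjusted p = 0.0526) and without replicate 2 (0.111), 3 (0.42), 4 (0.43) or 6 (0.116), and the log2 difference was -2.52 to -3.35 over all alternatives tried. With the block, the differences between PC and AC (-3.05, standard error 0.45, adjusted p = 0.00143) and between AC and MG (2.44, 0.45, adjusted p = 0.00723) were called too, at adjusted p of 0.0626 and 0.0703 without it. This made 3 calls among the 60 with the block, at a background of 0.620%.

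*Gadd45g*, which like *Gadd45b* was lowest in contralateral AC, had a smaller difference there. It ran from 962 over a median of 1158.5 to 1727 contralaterally and from 1612 over 2212.5 to 2890 ipsilaterally, with 1 contralateral library above the lowest ipsilateral one, and was higher in 6 of 6 pairs. The log2 change was 0.83 (standard error 0.18, limma adjusted p = 0.102), which was called with the block (0.0387). In PC the change was -0.55 (0.25, adjusted p = 0.305), lower in 6 of 6 pairs, and in EC and MG it was -0.27 and -0.05 (adjusted p = 0.863 and 0.935). *Gadd45a* had log2 changes of 0.80 in AC, higher in 6 of 6 pairs, -0.62 in PC, 0.13 in EC and 0.19 in MG, none of them called (adjusted p of 0.374 to 0.959).

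The proximal promoters of *Gadd45b* and *Gadd45g* are printed below because these 2 genes shared their lowest level in contralateral AC. *Bbc3* also had its lowest contralateral median there (35.5, beside 39 in PC), and a link between promoter sequence and level was not tested. The 250 bases before the RefSeq start are written on the gene's strand, with the E-box CACGTG, the CCAAT box and the TATAAA box in capitals, each searched on both strands.
Gadd45b, chr10:80929841-80930090, plus strand: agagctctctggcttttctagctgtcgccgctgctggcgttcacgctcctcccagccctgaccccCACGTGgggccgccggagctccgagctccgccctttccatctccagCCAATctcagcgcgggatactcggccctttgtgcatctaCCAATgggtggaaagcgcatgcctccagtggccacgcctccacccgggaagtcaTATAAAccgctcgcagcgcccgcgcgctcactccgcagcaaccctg
Gadd45g, chr13:51846425-51846674, plus strand: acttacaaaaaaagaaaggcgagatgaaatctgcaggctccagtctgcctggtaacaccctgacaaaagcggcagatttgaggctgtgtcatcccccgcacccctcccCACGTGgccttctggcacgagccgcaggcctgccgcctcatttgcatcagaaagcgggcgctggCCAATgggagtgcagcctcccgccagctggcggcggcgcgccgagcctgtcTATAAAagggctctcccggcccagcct
The E-box stood 185 bases before the start in *Gadd45b* and 142 in *Gadd45g*, and the TATAAA box 46 and 27 bases before it. These 2 genes were the members with a TATAAA match, a motif found in 13.6% of all windows, and the E-box occurred in 7.15% of windows and, among the members, also in *Bbc3*. The CCAAT box, in 37.4% of windows, was in 7 members and in 8 of their 13 windows. The AP-1 motif TGANTCA (7.81% of windows) and the κB motif (GGGA, any base, TTTCC, 0.411%) were in no window of the members.

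*Cdkn1a* rose in MG. It ran from 2740 over a median of 3807 to 6846 normalized counts contralaterally and from 6063 over 7137.5 to 16539 ipsilaterally, with slight overlap, and was higher ipsilaterally in 6 of 6 pairs. The log2 change was 0.94 (standard error 0.28, limma adjusted p = 0.0416, and 0.0317 with the block). The call was lost in 9 of 17 alternatives, among them without replicate 1, 2, 3, 4 or 6, at adjusted p of up to 0.117. In AC the change was 0.43 and in PC 0.16 (adjusted p = 0.791 and 0.627), each higher in 5 of 6 pairs. In EC, where the gene was most abundant, it was -0.41 (standard error 0.36, adjusted p = 0.717), with 56467 in contralateral replicate 2 beside 10519 to 23775 in the other 5.

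*Trp53inp1* and *Bbc3* fell in MG. *Trp53inp1* ran from 123 over a median of 281.5 to 456 normalized counts contralaterally and from 40 over 74 to 132 ipsilaterally, so that the highest ipsilateral library just passed the lowest contralateral one. Its log2 change was -1.74 (standard error 0.41, limma adjusted p = 0.0147, and 0.0214 with the block), and 5 of 6 pairs were lower. The call was lost without replicate 1 (adjusted p = 0.0631), without replicate 5 (0.0572) and with replicates 1 to 4 alone (0.107, and 0.131 with the block). *Bbc3* ran from 107 over 312 to 358 contralaterally and from 10 over 100 to 168 ipsilaterally, a log2 change of -1.84 (0.57, adjusted p = 0.0491), lower in 6 of 6 pairs. Its paired differences ran from -0.01 in replicate 3 to -4.7 in replicate 2. The call of *Bbc3* was lost with the block (adjusted p = 0.0527) and in 11 of 17 alternatives in all.

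Outside MG, *Trp53inp1* was lower ipsilaterally in 5 of 6 pairs of each cell type without being called. In EC it ran from 254 over a median of 938.5 to 1954 contralaterally and from 160 over 273.5 to 562 ipsilaterally, with wide overlap (log2 change -1.50, standard error 0.47, adjusted p = 0.185). In PC and AC the changes were -0.90 and -0.55 (adjusted p = 0.364 and 0.634). *Bbc3* was at 113.7 ± 43.7 and 76.2 ± 29.2 normalized counts (SD, n = 6) in contralateral and ipsilateral EC and at means of 32.7 to 47.8 in PC and AC, where the log2 changes were -0.60 and 0.03 (adjusted p = 0.668 and 0.994).

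Marker genes moved with the results in MG. The 4 microglial markers summed to 180699 to 227678 normalized counts in contralateral and to 91419 to 163197 in ipsilateral MG, and *Tmem119* and *Csf1r* were called lower. The 5 neutrophil markers summed to 74 to 976 and to 1385 to 17795, with *S100a8*, *S100a9* and *Retnlg* called higher, and the 3 monocyte markers (*Ccr2*, *Ly6c2* and *Plac8*) to 51 to 148 and to 127 to 521, with *Plac8* called higher. Of the 4 astrocyte markers, *Slc1a3* was called lower (means of 2899.8 and 978.3). The 10 immediate-early genes read, such as *Fos* and *Jun*, summed to 221263 to 614096 and to 144027 to 240910. The part of these differences in the changes of *Cdkn1a*, *Sesn1*, *Trp53inp1* and *Bbc3* was not tested.

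*Mdm2*, *Ccng1* and *Phlda3* were called in no cell type. *Mdm2*, the feedback inhibitor of p53, had log2 changes of 0.47 in AC, higher in 6 of 6 pairs, 0.23 in EC, 0.12 in PC and -0.09 in MG (limma adjusted p of 0.554 to 0.863), with 1 ipsilateral MG library at 247 normalized counts beside a median of 838. *Ccng1* was higher ipsilaterally in 6 of 6 pairs of AC and of MG, with log2 changes of 0.40 and 0.45 (standard errors 0.21 and 0.22, adjusted p = 0.618 and 0.187). In EC and PC its changes were 0.09 and 0.04. *Phlda3* had changes of 0.80 in EC, 0.46 in AC, 0.32 in MG and -0.36 in PC (adjusted p of 0.484 to 0.714), and its order of cell types by median kept MG lowest and EC next in both hemispheres.

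The genes around the members were read from fixed lists. Of the 10 regulators of p53 in the table, 9 or 10 were tested per cell type and 0 were called in any, with and without the block, where 10.6% of all genes were called in MG and 0.341% to 1.02% in the others; their median log2 change was -0.09 in EC, 0.35 in PC, -0.07 in AC and -0.12 in MG. *Trp53* itself, the gene of p53, was higher ipsilaterally in 6 of 6 pairs in EC (279 over a median of 459 to 679 against 569 over 893 to 1077, log2 change 0.88, standard error 0.25, limma adjusted p = 0.155) and in PC (483 over 508 to 707 against 593 over 779 to 883, 0.41, 0.18, adjusted p = 0.289). Its hemispheres overlapped in both. In AC and MG its changes were 0.30 and 0.07 (adjusted p = 0.657 and 0.756). *Mdm4*, the partner of *Mdm2*, was at a mean of 682.3 and 342.2 in contralateral and ipsilateral MG (log2 change -1.18, standard error 0.45, adjusted p = 0.103), and its changes elsewhere were -0.09 in EC, -0.23 in PC and 0.14 in AC. The values in EC and PC include replicate 4, with paired differences of 3.73 (from 9 normalized counts contralaterally) and 1.07, while the other 5 pairs lay at -0.25 to -1.47 in EC and at -0.02 to -0.78 in PC.

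Of 25 other p53 targets, 23 to 25 were tested per cell type. None was called in EC, *Plk3*, a stress kinase, rose in PC (77.8 to 386.7 mean normalized counts, log2 change 2.40, standard error 0.39, limma adjusted p = 0.0153), and *Eda2r*, a receptor of the TNF receptor family, rose in AC (13 to 82, 2.97, 0.57, adjusted p = 0.0466). In MG 4 of them fell and 0 rose, where 6.27% and 4.29% of all genes did. These were *Ddit4* (-2.52, standard error 0.54, adjusted p = 0.00828), which like sestrins restrains mTORC1, *Cd82*, a tetraspanin (-1.33, 0.21, adjusted p = 0.00154), *Ercc5*, a nuclease of excision repair (-1.10, 0.30, adjusted p = 0.0307), and *Btg2*, an antiproliferative gene (-1.06, 0.32, adjusted p = 0.0477). Of 17 alternatives, the call was lost in 5 for *Plk3*, 8 for *Ercc5*, 10 for *Btg2* and 0 for *Ddit4* and *Cd82*. That of *Eda2r* was lost in 10 of 16. The block added *Gdf15*, a secreted stress cytokine, as higher in AC (4.38, adjusted p = 0.031) and MG (1.51, adjusted p = 0.00969), and *Perp*, a desmosomal protein, as lower in PC (-0.83, adjusted p = 0.0396). The median log2 change of the list was 0.14 in EC, -0.06 in PC, 0.20 in AC and -0.19 in MG, beside the medians of all genes given above.

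Of 9 paralogues of the members, 8 were tested per cell type. Calls were made in MG, where 10.6% of all genes were called, and 0 in the others, where 0.341% to 1.02% were. *Trp53inp2* rose (log2 change 1.18, standard error 0.31, limma adjusted p = 0.0238), the opposite direction to *Trp53inp1* in the same libraries, and *Ccng2* (-1.10, 0.25, adjusted p = 0.0128) and *Cdkn1c* (-1.09, 0.30, adjusted p = 0.0293) fell, the last not with the block. *Sesn2* and *Sesn3*, the paralogues of *Sesn1*, were not among the calls. Of 10 genes that Gadd45 proteins bind or act through, 9 or 10 were tested. *Map2k3*, a kinase upstream of p38, rose in PC (0.92, 0.19, adjusted p = 0.0374), and *Mapk14*, the gene of p38α, fell in MG (-1.07, 0.28, adjusted p = 0.0255). Of 17 alternatives, the call was lost in 9 for *Map2k3*, 5 for *Mapk14*, 5 for *Trp53inp2*, 3 for *Ccng2* and 9 for *Cdkn1c*. In the PC libraries in which *Plk3* and *Map2k3* rose, the neutrophil markers summed to 0 to 1206 contralaterally and 41 to 12117 ipsilaterally, with *S100a8* called with the block (log2 change 5.32, adjusted p = 0.0424), and the microglial markers to 249 to 11003 and 267 to 28388. Their part in these rises was not tested.

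Immediate-early genes, which like *Gadd45b* and *Gadd45g* answer within minutes to many stimuli, were read in the same way, and the differences between cell types in their changes were not tested. All 10 had a log2 change above 0 in AC, where 55.6% of all genes were below 0, with a median of 0.63 and 0 called with or without the block. In EC 7 of 10 were below 0 (median -0.08, 52.1% of all genes below 0), with 0 called. In PC 9 of 10 were below 0 (median -0.32, 52.5% of all genes), with 0 called and 2, *Atf3* and *Jun*, with the block. In MG 9 of 10 were below 0 (median -0.86, 59.5% of all genes), and 4 fell, *Fos*, *Fosb*, *Egr1* and *Jun*, to which the block added *Atf3* and *Dusp1*. Beside these counts, 6.27% of all genes were called lower in MG, and with the block 11.0% were called in either direction in MG and 1.66% in PC. Their summed level was 13025 to 58885 in contralateral AC, against 106526 to 305039 in EC, 260606 to 494655 in PC and 221263 to 614096 in MG, so AC held the lowest level of these genes as it did of *Gadd45b*. Ipsilateral AC held 23995 to 80197. Dissociation of tissue also induces these genes, and its part in their levels and changes was not tested.

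Pearson's r of each member with all other genes was taken over the 48 libraries after subtraction of each cell type's mean, as a description, since libraries of 1 pool share their mice and both hemispheres are included. *Sesn1* was most like *Mtus1* (0.86), *Pink1* (0.85) and *Tsc22d3* (0.83), and *Trp53inp1* was most like *Klhl24* (0.70) and then *Sesn1* (0.68) among 15002 genes. *Gadd45b* was most like *Map3k8* (0.74), *Gadd45g* (0.74) and *Atf3* (0.72), and *Gadd45g* was most like *Gadd45b* and then *Nupr1* (0.71). *Gadd45a* counted *Gadd45b* (0.62) among its nearest 3, after *Hsp90aa1* (0.64) and *Cops8* (0.62). Among the members, *Cdkn1a* had r of 0.51 to 0.63 with the 3 Gadd45 genes and of -0.50 with *Sesn1*, while the highest r with another member was 0.29 for *Mdm2* and *Ccng1* and 0.24 for *Phlda3*. *Cdkn1a* itself was nearest to *Hmgn2* (0.77), *Phlda3* to *Zyx* (0.77), *Bbc3* to *Lipe* (0.76), *Mdm2* to *Irf9* (0.75) and *Ccng1* to *Naa50* (0.75).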

How the data were processed

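RNA of 48 libraries was analysed, 6 for each of 4 cell types and 2 hemispheres. RNA was copied from the poly(A) end with a SMART-Seq HT kit, which does not mark strand. Per the submitters' processing notes, the authors used Trimmomatic 0.38, STAR 2.6.1d with the genome GRCm38, featureCounts 1.6.3 and DESeq2 1.18.1. The values the authors deposited are DESeq2-normalized counts rounded to whole numbers, treated here as a score and never as raw counts, so no count test was run. A column without a sample was found 0 times.

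Hemispheres were compared within each cell type with limma 3.58.1 (R 4.3.3, trend, two-sided, 12 libraries, no block) on log2(normalized count + 1), a scale that understates changes of low genes, leaving out genes whose mean was under 10. A called gene had an adjusted p of at most 0.05, a change of at least 1.5-fold and, in 1 hemisphere or both, all 6 libraries above 10 normalized counts. Cell types were compared in a fit of all 48 libraries, adjusted over all genes within each contrast. The fit was tested on simulated data.

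Both hemispheres of a replicate number were taken to come from the same pooled mice, an assumption made from the equal numbers alone. Deviations from the group means correlated at 0.23, 0.23, 0.38 and 0.14 on average in EC, PC, AC and MG for equal numbers, and at -0.04, -0.04, -0.08 and -0.03 for unequal ones.

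The 10 members and all gene lists were chosen with earlier results of these data known. Named beyond the members were genes of 4 pathway lists and the immediate-early list called in a cell type, *Trp53* and *Mdm4*, marker genes, and genes among the 3 most correlated with each member. *Sesn2* and *Sesn3* were named outside this rule. *Cdkn2a*, *Cd3e* and *Cd3d* were not analysed here. Alternatives were pseudocounts of 0.1 and 10, the block, a minimum mean of 50 or none, rescaling within the cell type, no expression rule, no minimum fold change, a joint fit, each replicate left out, replicates 1 to 4 alone, replicates 5 and 6 alone (a value with no test), and the cell types of the sample titles. Replicates 1 to 4 with the block were added after the values were seen. Promoter windows came from RefSeq. Exon lengths were those of GENCODE release M21. Summaries used Python 3.11.15, numpy 2.4.6, pandas 2.3.3 and matplotlib 3.10.9.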

Additional observations from a re-analysis of the deposited data

Results flagged for a closer look

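Dixon's test was run on normalized counts without a log. Its rate of about 1 group in 20 flagged by chance assumes normally distributed values and may not hold here. Within the 80 groups of 6 libraries (10 members, 4 cell types and 2 hemispheres), 7 had a highest library far from the rest by this test. In contralateral endothelial cells these all belonged to replicate 2, with *Cdkn1a* at 56467 normalized counts beside 10519 to 23775 in the other 5, *Gadd45b* at 7899 beside 1337 to 3238, and *Gadd45a* at 421 beside 62 to 189. Without that replicate, the log2 change of *Cdkn1a* in endothelial cells was -0.05 (limma adjusted p = 0.946) in place of -0.41.

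Replicate 2 was also the library that stood apart for *Gadd45b* in contralateral astrocytes, at 1164 beside 240 to 538, and for *Cdkn1a* in ipsilateral microglia, at 16539 beside 6063 to 8754. That microglial library had the highest total of all libraries (16942165). It also held the lowest ipsilateral microglial value of *Sesn1* (197), *Bbc3* (10) and *Mdm2* (247), but not of *Trp53inp1* (99, where the lowest was 40). The remaining flags were *Cdkn1a* in ipsilateral pericytes of replicate 5, at 11267 beside 8019 to 9005, and *Ccng1* in ipsilateral endothelial cells of replicate 4, at 664 beside a group median of 377.5. The stroke effect on *Gadd45b* differed between endothelial cells and astrocytes by -2.881 on the log2 scale, by the test of that difference in the joint fit (limma adjusted p = 0.0417).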

How the results depend on the processing

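Of 40 log2 fold changes, 10 members in 4 cell types, 737 values were computed under alternatives, of which 30 lost a call, 9 gained one and 696 did neither and turned no called change. Of the remaining values, 1 reversed a called change and 1 was classed as moved. The 737 include 40 values of replicates 5 and 6 alone, which carry no test and could neither lose nor gain a call. Most of the 696 belong to changes that were not called in the first place. Among the called changes, *Gadd45b* in astrocytes lost its call in 6 of 17 alternatives on column names. In microglia *Cdkn1a* lost it in 9, *Trp53inp1* in 4, *Bbc3* in 11 and *Sesn1* in 0. In endothelial cells 1 member, *Sesn1*, was called in the joint fit of all 48 libraries in place of 0. With the replicate block, which pairs hemispheres by replicate number, 3 members were called in astrocytes in place of 1, and 3 contrasts between cell types, all of *Gadd45b*, in place of 1. With no filter on low values, 0 members were called in astrocytes, 2 in microglia in place of 4, and 3 contrasts of stroke effects. The contrasts called were 0 with a pseudocount of 0.1 and 3 with a pseudocount of 10. Replicates 1 to 4 alone gave 1 call in microglia, *Sesn1*, without and with the block. Leaving out 1 replicate gave 0 to 1 calls in astrocytes, 1 to 3 in microglia and 0 to 1 contrasts of stroke effects. The cell types of the conflicting sample titles gave 4 calls in pericytes. Among the log2 changes called in microglia they turned 3, *Trp53inp1* to 0.7745, *Cd82* to 0.2807 and *Cdkn1c* to 3.414. Apart from fewer libraries or other libraries entering a fit, the causes were not tested. *Sesn1* in microglia was called under all 17 alternatives on column names. Under these 17 alternatives, log2 changes of up to 0.32 that were not called crossed 0 in 16 values. With replicates 5 and 6 alone, which are not in that count, larger ones crossed too. Examples are *Cdkn1a* in endothelial cells (-0.41 to 0.05) and *Bbc3* in pericytes (-0.60 to 0.07). Crossings of uncalled changes under the sample titles were not counted either. Depth limits the lowest values, since 3 reads were worth 2.0 to 7.1 normalized counts, depending on the library.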
